A study of Mus musculus with 9 samples.

Results

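YFP-positive cardiomyocytes were compared with adult cardiomyocytes on 6 of the 9 Illumina mouse bead arrays of the study, 3 arrays for each kind of cell. The comparison covers the 10024 genes that passed a detection filter. The YFP-positive cells came, per the design text, from mice on a C57BL/6J background that carry the reporter allele Gt(ROSA)26Sortm1(EYFP)Cos. In these mice a YFP reporter sits at the Rosa26 locus and is switched on by Cre recombinase, and a lentivirus carried Cre under c-kit control, so that YFP marks cells infected while c-kit was active together with their descendants. Cells with YFP were isolated by fluorescence-activated sorting of tissue taken at the left ventricular apex, 28 days after 1 subcutaneous dose of isoproterenol, a beta-adrenergic agonist that damages heart muscle, at 200 mg per kg. Normal adult cardiomyocytes came from the same reporter strain. The other 3 arrays held cultured cardiac stem cells (eCSCs), labelled c-kit-positive although none of their arrays detected Kit. They entered the normalization, the detection filter and the estimate of spread between arrays. Of the 10024 genes, 808 passed that filter through the eCSC arrays alone. The study asks how far cells that it takes for new cardiomyocytes had differentiated, and whether they are new is not addressed by these values.

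Several points of the samples are not settled by the labels. The design text has the YFP-positive cells sorted from hearts, but their sample titles read in vitro. Isoproterenol stands in the treatment text of every sample, so that treatment of the mice behind the adult cells is not settled either. The labels give no age for any mouse, and whether each sample is a separate animal is not stated, so the p-values rest on a spread between samples that may be technical only.

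As background, a heart muscle cell matures after birth along several lines together. It stops dividing, exchanges fetal for adult isoforms of its contractile proteins, builds the membrane systems that couple excitation to calcium release, and turns from glucose towards fatty acids as fuel while its mitochondria multiply. Growth factors of the fetal heart, several of them from imprinted genes, are shut down at the same time. The heart also holds fibroblasts, endothelium, leukocytes, pericytes and other cells, whose transcripts reach a bulk sample when those cells are sorted along. Genes of maturation and genes of other cell types were therefore taken apart here as separate lists. The lists and their members were chosen with earlier results of these data known. Shares of calls in any list below are thus not independent of those results.

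The arrays detected 19048, 16802 and 19002 of 45281 probes on YFP-positive arrays 1, 2 and 3, and 15817, 15986 and 15326 on adult arrays 1, 2 and 3, at a detection p under 0.05. YFP-positive array 2 stood apart from the other YFP-positive arrays before any gene was tested. Its mean correlation with the adult arrays over the genes tested was 0.922, against 0.876 for array 1 and 0.880 for array 3, and its array weight in limma, which falls with an array's distance from its group, was 0.443 against 1.03 and 1.52. Each result below was therefore also computed without it. Defining cardiomyocyte transcripts were detected on all 6 arrays: Myh6 (alpha myosin heavy chain), Myl2 (ventricular regulatory light chain), Actc1 (cardiac actin) and Ryr2 (the calcium release channel). With 3 arrays in each group, their number sets the precision.

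Levels are normalized log2 signals, and differences are YFP-positive minus adult on that scale, each with its standard error (SE). Calls are those with a Benjamini-Hochberg adjusted p under 0.05 over all genes in limma's moderated test. Where no array of a group detected a gene, its level there has only an upper limit, and the fold is given as at least N. That limit is, for each such array, whichever is higher of the gene's own signal and the dimmest signal of the probes detected on it, and the mean of the other group is set against the mean limit. Where a group detected a gene on part of its arrays, their number is given, and the size of the difference is then uncertain.

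Of the 10024 genes tested, 2284 (22.8%) were called higher and 2779 (27.7%) lower in YFP-positive cells, 50.5% in either direction. The rises were the larger changes. At least 2-fold differences were reached by 1251 of the genes called higher and by 706 of those called lower, and at least 8-fold ones by 158 and by 0. Without background correction the 2-fold counts were 634 higher and 199 lower, and with the series matrix values 595 and 135. Detection was uneven in the same direction: 529 genes were detected on all 3 YFP-positive and no adult array, and 35 on all 3 adult and no YFP-positive array. Of the 529 genes, 232 were also detected on all 3 eCSC arrays and 228 on none of them. Without YFP-positive array 2 the calls numbered 2353 higher (23.5%) and 2867 lower (28.6%). The split between directions depended on how the arrays were scaled to each other: 45.1% of the calls were higher under quantile normalization, 43.8% with median scaling on the probes detected on all 9 arrays, 44.3% with the authors' series matrix values, 73.1% with median scaling over all probes and 82.1% with none. The median of all genes was −0.08 under quantile normalization, −0.16 with median scaling on detected probes, 0.16 with that over all probes and 0.24 with none.

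**Figure D1:**
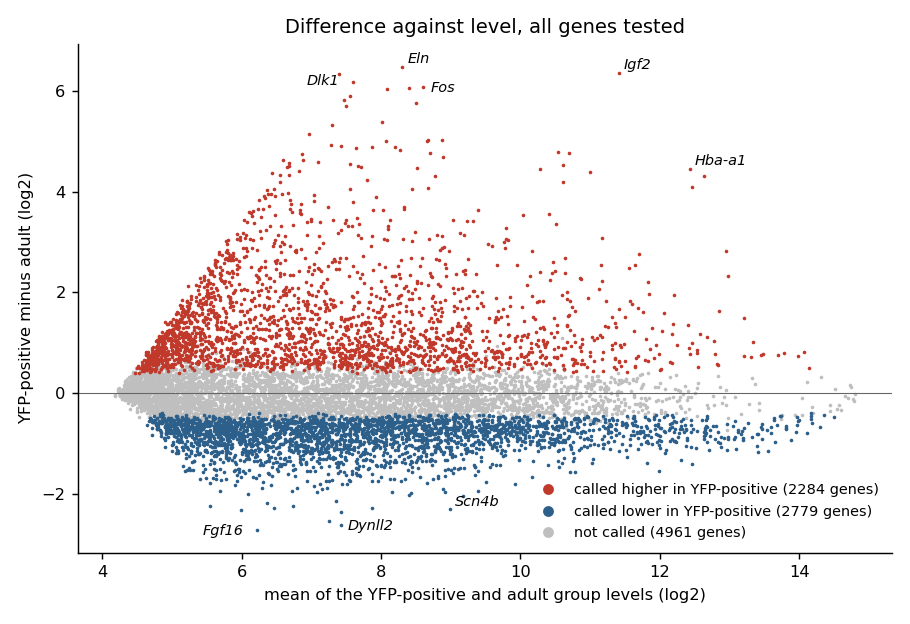
Difference between YFP-positive and adult cells (vertical axis, log2) against the mean of the 2 group levels (horizontal axis, normalized log2 signal), 1 point per gene of 10024. The 2284 genes called higher reach up to a difference of 6.47 (Eln), while the 2779 called lower reach no further than −2.71 (Fgf16).

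Eln led the 12 largest rises. Eln, which encodes elastin, read 11.80, 10.91 and 11.91 on YFP-positive arrays 1, 2 and 3, and 5.11, 5.38 and 4.71 on the adult arrays, where 2 of 3 detected it. The groups lay far apart, and the difference was 6.47 ± 0.25 (adjusted p = 4.88e-10). The others were Igf2 (6.35), the cysteine protease inhibitor Stfa1, Dlk1, Fos (6.08), Myl7 (6.06), the neutrophil-attracting chemokine Cxcl1 (6.04), Fosb, the secreted growth factor Ptn (5.82), the calcium pump regulator Sln (5.76), the heme synthesis enzyme Alas2 (5.71) and S100a8 (5.37). Stfa1 was undetected on every adult array and at least 52.2-fold higher. Stefin A genes are near-identical copies, so its reads cannot be assigned to 1 of them with certainty. Cxcl1, Ptn and Alas2 were detected on 1 of 3 adult arrays each, and Fos, Myl7 and Sln on 2.

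The 12 largest falls were smaller and included several genes of striated muscle. Fgf16, a fibroblast growth factor of heart muscle, read 5.18, 4.55 and 4.86 on the YFP-positive arrays and 7.76, 7.76 and 7.20 on the adult arrays, a difference of −2.71 ± 0.21 (adjusted p = 1.89e-07). It was detected on 2 of 3 YFP-positive arrays. Myot, which encodes the Z-disc protein myotilin, fell by 2.32 with detection on 2 of 3 YFP-positive arrays, the sodium channel subunit Scn4b by 2.30, the acyl-CoA synthetase Acsl6 by 2.54 and Asb14 by 2.35. The others were Dynll2 (−2.61), the aminotransferase Kyat3 (−2.29), the quinone reductase Nqo1 (−2.28), Cdh4 (−2.23), Mal (−2.17) and Cdnf (−2.14). Inmt, a methyltransferase, was undetected on every YFP-positive array and at least 4.07-fold lower.

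**Figure D2:**
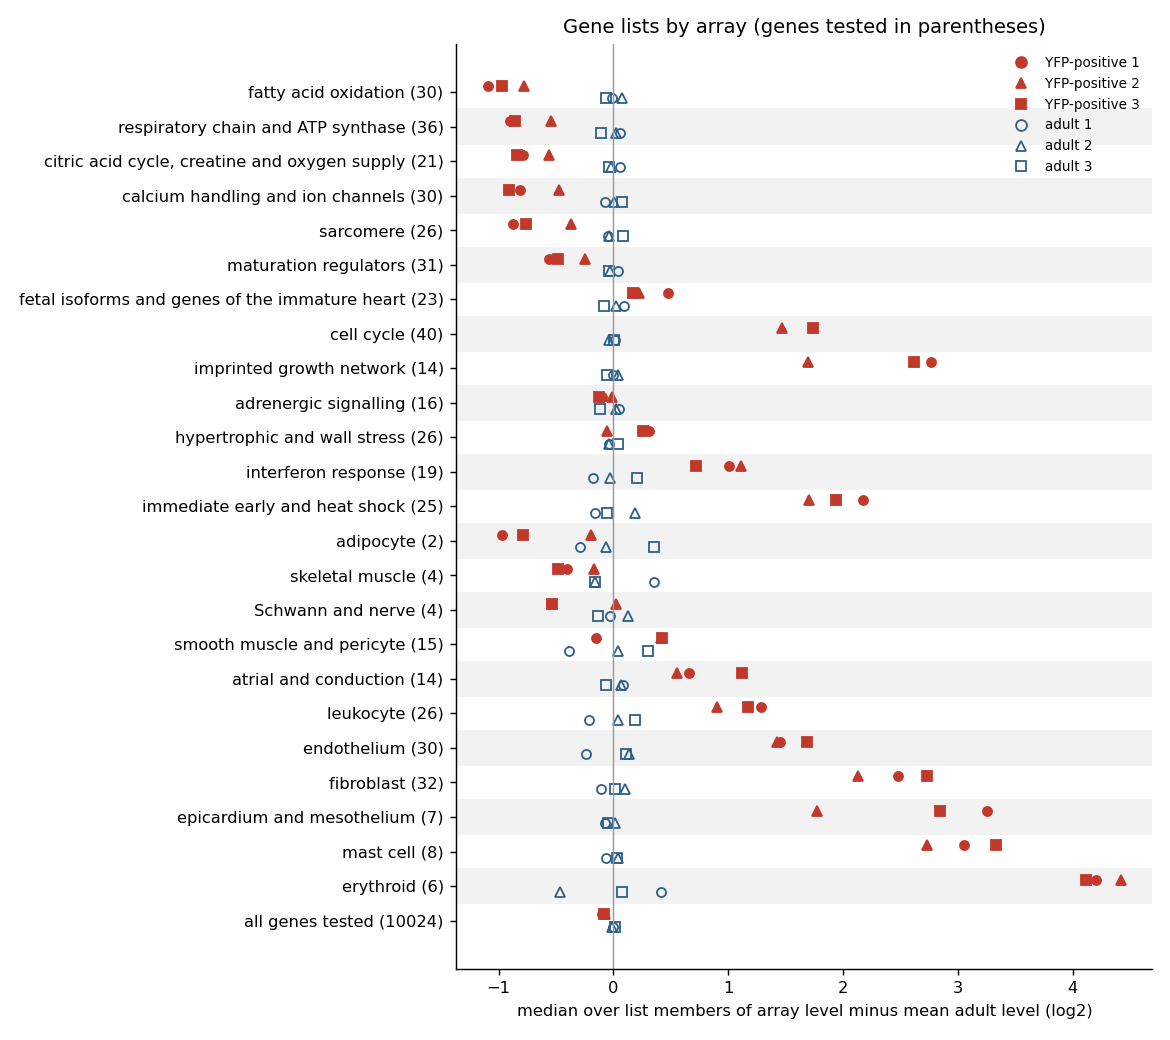
Median level of each gene list on each array, as the difference from the mean adult level (horizontal axis, log2), with the number of genes tested in parentheses. Filled red symbols are YFP-positive arrays and open blue symbols are adult arrays; YFP-positive array 2 (triangle) lies nearer to the adult arrays than arrays 1 and 3 in each of the 6 maturation lists at the top.

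Genes of muscle maturation were lower in YFP-positive cells on a broad front and by modest amounts. Over 6 lists (sarcomere, calcium handling and ion channels, fatty acid oxidation, citric acid cycle with creatine and oxygen supply, respiratory chain, and maturation regulators), 124 of 173 genes tested were called lower and 5 higher, and the median difference was −0.75, against −0.08 over all genes tested. Without YFP-positive array 2 the counts were 131 lower and 6 higher, with a median of −0.87. Since the lists were chosen with earlier results of these data known, these shares are a description and not independent support. On the same arrays 107 of 148 tested markers of other cell types were called higher. The 148 include 14 atrial and conduction genes, 9 of them called higher, some of which also stand in the fetal list. The part of other cells in the lower maturation genes was not tested. In a bulk sample, fewer cells of a type and less RNA of a gene in each cell cannot be told apart.

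The main proteins of the contractile filaments were among the sarcomere genes that were not called. Myh6 read 14.50, 14.49 and 14.38 on the YFP-positive arrays and 14.50, 14.84 and 14.72 on the adult arrays, so that the groups overlapped (difference −0.23 ± 0.16, adjusted p = 0.248). Myl2 read 14.65, 14.72 and 14.29 against 14.42, 14.31 and 14.67 on the adult arrays, also overlapping. The differences of Myl3, the ventricular essential light chain, and of Actc1 were 0.12 ± 0.15 and −0.32 ± 0.15, and neither was called. Actc1 was lower on every YFP-positive array and was called lower under 6 alternatives (adjusted p 0.0115 to 0.0431), no background correction, array weights and the mean of its probes among them. These transcripts lie at the top of the arrays' range: between 2 and 30 of the 45281 probes were brighter than Myh6 on each of the 6 arrays. A second, dimmer probe of Myh6 read 10.74, 11.24 and 10.72 on the YFP-positive arrays and 12.27, 12.11 and 11.99 on the adult arrays, without overlap and 1.22 lower, and with the mean of its probes Myh6 was called lower (−0.73, adjusted p = 0.00106). A dimmer probe of Actc1 was called lower as well, by 0.58. These dimmer probes were singled out after their values were seen.

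Most genes of the sarcomere list were lower. Of 26 genes tested, 19 (73.1%, against 27.7% of all genes) were called lower and 1 higher, with a median of −0.68. Mylk3, the kinase of the cardiac light chain, read 8.82, 8.37 and 8.65 on the YFP-positive arrays and 10.19, 10.14 and 9.79 on the adult arrays, and fell by 1.43 ± 0.18 (adjusted p = 2.37e-05). Pdlim5, a Z-disc scaffold, fell by 1.46, Cryab, a small heat shock protein that protects the Z-disc, by 1.32, and Fhod3, an actin-assembling formin, by 1.14. For Pdlim5 the probes disagreed: of 3 detected, 2 were called lower and 1 higher. Lmod2, which lengthens thin filaments, fell by 0.96 and was detected on only 1 YFP-positive array. Tnni3, the adult cardiac troponin I, read 10.82, 11.23 and 10.97 in YFP-positive cells and 11.25, 11.75 and 11.64 in adult cells. These groups were separated by a narrow gap, and the call (−0.54 ± 0.18, adjusted p = 0.0228) was lost when YFP-positive array 1 or 3 or adult array 2 or 3 was left out (adjusted p 0.0646 to 0.099).

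The single sarcomere gene called higher was Tpm1, an alpha tropomyosin gene that is spliced into muscle and non-muscle forms. It read 9.64, 9.72 and 10.33 on the YFP-positive arrays and 7.09, 7.63 and 7.79 on the adult arrays, a rise of 2.40 ± 0.22 (adjusted p = 1.31e-06). Its other detected probe rose as well, by 1.78. Both probes carry the symbol of the gene, and the annotation used here does not say which spliced form they read.

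Among the genes of excitation and calcium handling, the largest falls were those of sodium and potassium channel subunits and of junctional proteins. Of 30 genes tested, 20 (66.7%, against 27.7% of all genes) were called lower and 1 higher, with a median of −0.76. Scn4b, a sodium channel beta subunit, read 7.52, 8.43 and 7.55 on the YFP-positive arrays and 9.57, 10.36 and 10.46 on the adult arrays (−2.30 ± 0.27, adjusted p = 1.1e-05). YFP-positive array 2 was the highest of its group and still below every adult array. Kcnj2, which carries the inward rectifier current that holds the resting potential, read 4.888, 4.653 and 4.999 against 6.598, 6.528 and 6.573 in adult cells, a fall of 1.72 ± 0.17 with detection on 2 of 3 YFP-positive arrays. Kcnip2, a subunit of the channel behind the transient outward current, fell by 1.55, and all 3 of its detected probes were called lower. Asph, whose gene also yields the junctional protein junctin, fell by 1.76 with all 8 detected probes called lower, and the calcium sensor S100a1 fell by 1.40. Abcc9, the sulfonylurea receptor of ATP-sensitive potassium channels, fell by 0.97 and also stands in the list of smooth muscle and pericyte markers.

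The calcium pump and the release channel were not called, but their probes disagreed. Atp2a2, the calcium pump of the sarcoplasmic reticulum, read 14.81, 14.81 and 14.79 on the YFP-positive arrays and 14.34, 14.71 and 14.88 on the adult arrays, which overlap, while 1 of its 2 dimmer probes was called lower. Ryr2 read 11.491, 11.914 and 11.354 in YFP-positive cells and 11.951, 12.037 and 12.003 in adult cells (−0.41 ± 0.18, adjusted p = 0.0658), and without YFP-positive array 2 it was called lower (−0.57, adjusted p = 0.011). Of the 2 dimmer probes of Ryr2, 1 was called higher and 1 lower. Pln, the inhibitor of the pump, differed by −0.57 ± 0.18 (adjusted p = 0.0167), a call that was lost without YFP-positive array 1 or 3 or adult array 1 (adjusted p 0.0578 to 0.0776). Bin1, which shapes transverse tubules in muscle and is also made in many other cells, was the only member of the list called higher, at 7.34, 7.21 and 7.63 on the YFP-positive arrays and 5.09, 5.25 and 5.73 on the adult arrays (2.04 ± 0.20). Its second detected probe was called lower by 0.55, so the probes of this gene moved in opposite directions.

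**Figure D3:**
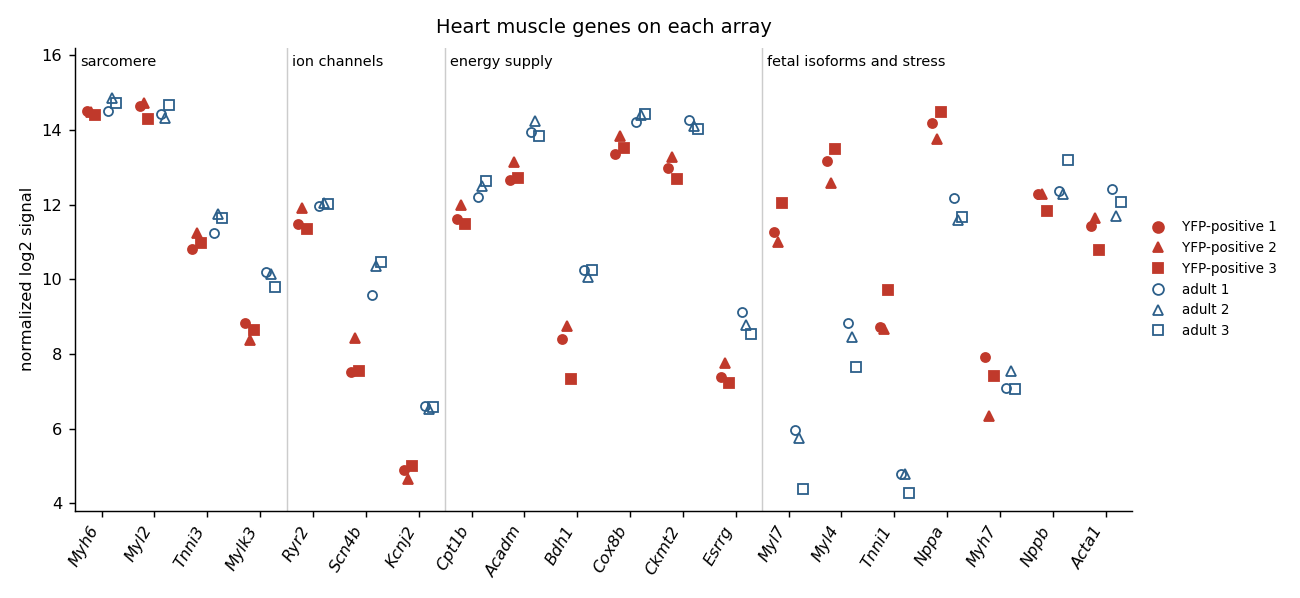
Normalized log2 signal (vertical axis) of 20 heart muscle genes on each array; filled red symbols are YFP-positive arrays and open blue symbols adult arrays, placed right of them. Myh6 and Myl2 overlap between the groups, most genes of ion channels and energy supply lie lower in YFP-positive cells, and Myl7, Myl4, Tnni1 and Nppa lie higher.

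Genes of fatty acid oxidation gave the lowest median of the maturation lists. Of 30 genes tested, 25 (83.3%, against 27.7% of all genes) were called lower and 0 higher. At an unadjusted p under 0.05 limma gave 26 lower and 0 higher, and the highest difference in the list was −0.06. The median was −0.95, and −1.03 without YFP-positive array 2. Acadm, the medium-chain acyl-CoA dehydrogenase, read 12.65, 13.13 and 12.70 on the YFP-positive arrays and 13.93, 14.22 and 13.82 on the adult arrays, a fall of 1.17 ± 0.18 (adjusted p = 0.000155). Bdh1, which oxidises ketone bodies, had the largest fall of the list at 8.40, 8.75 and 7.33 in YFP-positive cells and 10.24, 10.07 and 10.26 in adult cells (−2.03 ± 0.28). No array of either gene overlapped the other group. Decr1, which handles unsaturated fatty acids, fell by 1.35, the fatty acid transporter Cd36 by 1.22, Hadh by 1.15 (detected on 2 of 3 YFP-positive arrays) and the electron carrier Etfa by 1.04.

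Genes of fatty acid binding and entry into mitochondria were also called lower. Cpt1b, the muscle carnitine palmitoyltransferase that admits long-chain fatty acids to mitochondria, read 11.62, 11.99 and 11.47 on the YFP-positive arrays and 12.20, 12.50 and 12.63 on the adult arrays (−0.75 ± 0.20, adjusted p = 0.00615). Fabp3, the heart fatty acid binding protein, read 14.19, 14.38 and 14.22 in YFP-positive cells and 14.80, 14.79 and 14.63 in adult cells (−0.48 ± 0.16, adjusted p = 0.0198), also near the top of the range, where between 5 and 43 probes were brighter. Its call was lost without YFP-positive array 1 or 3 or adult array 1 or 2 (adjusted p 0.0565 to 0.0661).

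The citric acid cycle and the respiratory chain followed with similar sizes. In the list of the citric acid cycle, creatine and oxygen supply, 17 of 21 genes tested (81.0%, against 27.7% of all genes) were called lower. The median was −0.76. Ckmt2, the mitochondrial creatine kinase, read 12.97, 13.28 and 12.69 on the YFP-positive arrays and 14.26, 14.11 and 14.02 on the adult arrays (−1.15 ± 0.18). Coq8a, needed for coenzyme Q, fell by 1.52, the malate dehydrogenase Mdh1 by 1.11, the muscle creatine kinase Ckm by 0.86, Idh3a by 0.86 and citrate synthase, Cs, by 0.81. Idh3b was called higher by 0.71 through its brighter probe, and it is named after its values were seen. Of 36 genes of the respiratory chain and ATP synthase, 31 (86.1%, against 27.7% of all genes) were called lower and 0 higher by limma. At an unadjusted p under 0.05 limma gave 32 and 0, and the median was −0.80. The complex I subunits Ndufa5, Ndufs8, Ndufs4 and Ndufs3 fell by 1.11, 1.04, 0.96 and 0.92, the complex II subunit Sdhb by 0.96 and the ATP synthase subunit Atp5j by 0.91.

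Cytochrome oxidase, complex IV, has subunits with a muscle isoform and a general isoform, and both kinds were measured here. Among the muscle isoforms, Cox8b read 13.34, 13.83 and 13.52 on the YFP-positive arrays and 14.20, 14.39 and 14.42 on the adult arrays (−0.78 ± 0.18), Cox7a1 was called lower by 0.68, and Cox6a2 was not called (−0.12 ± 0.15). Cox6a2 read 14.73, 14.73 and 14.69 on the YFP-positive arrays and 14.78, 14.88 and 14.84 on the adult arrays, lower on every YFP-positive array, at the top of the range, where between 1 and 12 probes were brighter. Among the general isoforms, Cox7a2 was called lower by 0.65 ± 0.22 (adjusted p = 0.0231), a call lost without YFP-positive array 1 or adult array 1 (adjusted p 0.112 and 0.109). Cox6a1 read 11.63, 11.71 and 11.90 in YFP-positive cells and 11.52, 11.53 and 11.40 in adult cells, higher on every YFP-positive array but not called (0.26 ± 0.17, adjusted p = 0.21), and its dimmer probe was called higher by 0.46 (adjusted p over probes 0.0363).

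Regulators of maturation changed less uniformly. Of 31 genes tested, 13 (41.9%, against 27.7% of all genes) were called lower and 2 (6.45%, against 22.8%) higher, with a median of −0.48. Without YFP-positive array 2 the counts were 16 and 3. Esrrg, a nuclear receptor that drives mitochondrial genes in heart, read 7.39, 7.76 and 7.22 on the YFP-positive arrays and 9.12, 8.78 and 8.53 on the adult arrays (−1.35 ± 0.20, adjusted p = 9.34e-05). Its relative Esrrb fell by 1.09 and Ppara, the lipid-sensing receptor that switches on fatty acid oxidation, by 1.12, with detection on 1 of 3 YFP-positive arrays. Smyd1, a muscle methyltransferase, fell by 1.02, the ventricular factor Irx4 by 0.73 and the cardiac factor Tbx5 by 0.71. The cardiac factors Nkx2-5 and Gata4 differed by −0.59 ± 0.18 and −0.73 ± 0.24. The call of Nkx2-5 was lost without YFP-positive array 1 (adjusted p = 0.0584) and that of Gata4 without YFP-positive array 1 or 3 or adult array 3 (adjusted p 0.0753 to 0.0939), and the Gata4 arrays overlapped. Tbx20 (0.48) and Nrf1 (0.65) were called higher and are named after their values were seen.

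Fetal isoforms did not rise as a block. Of 23 genes tested in the list of fetal isoforms and genes of the immature heart, 10 (43.5%, against 22.8% of all genes) were called higher and 5 (21.7%) lower, with a median of 0.23. Those with the largest rises are light chains and troponin of the atrial or early heart. Myl7, the atrial regulatory light chain that the early embryonic ventricle also makes, read 11.27, 10.99 and 12.03 on the YFP-positive arrays and 5.95, 5.76 and 4.39 on the adult arrays (6.06 ± 0.35, adjusted p = 1.4e-08). Myl4, the atrial and fetal essential light chain, read 13.18, 12.56 and 13.48 in YFP-positive cells and 8.83, 8.45 and 7.65 in adult cells (4.76 ± 0.29). Both were separated from the adult arrays by a wide gap on every YFP-positive array. Tnni1, the slow skeletal troponin I that the fetal heart uses before Tnni3, read 8.71, 8.67 and 9.72 and was undetected on every adult array, at least 18.0-fold higher. Myl9, a light chain of smooth muscle and non-muscle cells, rose by 4.08, Myh10, a non-muscle myosin, by 1.51 and Acta2, smooth muscle actin, by 1.18, and these are also made by vessels and fibroblasts.

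Nppa was called higher too, whereas Myh7, Acta1 and Nppb of the same list were not. Myh7, the beta myosin heavy chain of the fetal mouse ventricle, read 7.91, 6.34 and 7.40 on the YFP-positive arrays and 7.08, 7.55 and 7.07 on the adult arrays. The groups overlapped (−0.02 ± 0.30, adjusted p = 0.966), with YFP-positive array 2 the lowest of the 6 arrays. Acta1, skeletal actin, read 11.41, 11.65 and 10.79 in YFP-positive cells and 12.41, 11.69 and 12.08 in adult cells, and was called lower (−0.78 ± 0.23, adjusted p = 0.0119). The gap between its groups was narrow, and the call was lost without YFP-positive array 3 or adult array 1 (adjusted p 0.0691 and 0.0582). Nppa, the atrial natriuretic peptide, read 14.19, 13.76 and 14.47 against 12.17, 11.58 and 11.67 in adult cells (2.34 ± 0.21, adjusted p = 1.03e-06). Nppb, the B-type natriuretic peptide that rises with wall stress, read 12.28, 12.29 and 11.83 against 12.35, 12.29 and 13.21 in adult cells and was not called (−0.48 ± 0.26, adjusted p = 0.141). Adult array 3 stood above the other 5 arrays for this gene.

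The 4 promoters of Myl7, Nppa, Nppb and Acta1 are shown because these genes belong to the same list and differed in their calls. Each is the 250 bases before the RefSeq gene start on GRCm38.p6, written along the gene's strand, and capitals mark matches to the motifs searched on both strands: the CArG box bound by serum response factor, M-CAT (CATTCC) and the TATA box (TATAAA). Myl7 lies at chr11:5898783-5899032 (minus strand), Nppa at chr4:148000472-148000721 (plus strand), Nppb at chr4:147985650-147985899 (plus strand) and Acta1 at chr8:123894776-123895025 (minus strand).
Myl7: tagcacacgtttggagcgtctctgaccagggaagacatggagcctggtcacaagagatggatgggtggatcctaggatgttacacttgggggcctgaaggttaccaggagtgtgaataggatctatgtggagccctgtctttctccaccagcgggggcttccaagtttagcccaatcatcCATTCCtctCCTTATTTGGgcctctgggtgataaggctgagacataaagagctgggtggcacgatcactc
Nppa: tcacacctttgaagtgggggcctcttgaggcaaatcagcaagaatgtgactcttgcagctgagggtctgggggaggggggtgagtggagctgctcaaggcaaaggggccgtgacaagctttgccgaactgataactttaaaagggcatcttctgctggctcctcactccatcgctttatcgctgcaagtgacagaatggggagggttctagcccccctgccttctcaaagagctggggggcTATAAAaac
Nppb: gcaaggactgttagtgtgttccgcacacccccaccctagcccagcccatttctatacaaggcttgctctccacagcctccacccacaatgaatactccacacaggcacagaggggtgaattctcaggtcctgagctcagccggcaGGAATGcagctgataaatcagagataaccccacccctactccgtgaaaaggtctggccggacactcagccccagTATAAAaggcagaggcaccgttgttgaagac
Acta1: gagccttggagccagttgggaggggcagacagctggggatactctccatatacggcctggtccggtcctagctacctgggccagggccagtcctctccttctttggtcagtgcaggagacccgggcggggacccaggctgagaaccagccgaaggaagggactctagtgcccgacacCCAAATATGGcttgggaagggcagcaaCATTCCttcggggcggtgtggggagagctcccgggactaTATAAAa
Over all 32851 promoter windows of the RefSeq table, 1.47% held a CArG box, 12.6% M-CAT, 12.4% a TATA box and 0.186% both a CArG box and M-CAT. Counted by gene over any of its promoters, 1.62% of 27025 genes held a CArG box and 14.4% M-CAT. Among 22 tested genes of the fetal list, 3 (13.6%) held a CArG box and 8 (36.4%) M-CAT. Among 22 tested genes of the sarcomere list, which was mostly called lower, the counts were 4 (18.2%) and 6 (27.3%). Both motifs were thus commoner in each of these lists than over all genes, and not in the fetal list alone. Myl7, which rose, and Acta1, which was called lower, both hold a CArG box and M-CAT. Nppa holds only a TATA box of these motifs, and Nppb holds M-CAT and a TATA box. A match is a description of the letters, not evidence of a bound site.

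Genes of the imprinted growth network were higher in YFP-positive cells. Of 18 genes with a probe, 14 passed the detection filter. Of these, 12 (85.7%, against 22.8% of all genes) were called higher by limma and 0 lower, at an unadjusted p under 0.05 as well. The median was 2.41. Of the 14, 6 were undetected on every adult array and passed through a group where they are high. With no filter 12 of 18 were called higher, with a median of 1.31, and of the 8 genes detected on all 6 arrays 6 were called higher. Igf2, the fetal insulin-like growth factor, read 14.69, 14.42 and 14.65 on the YFP-positive arrays and 8.10, 8.02 and 8.57 on the adult arrays, an 81.8-fold rise (6.35 ± 0.19, adjusted p = 7.39e-11). Dlk1, a Notch ligand relative of fetal tissues, read 11.07, 10.63 and 10.37 and was undetected on every adult array, at least 56.8-fold higher. Mest, another imprinted gene, read 8.95, 9.22 and 9.57 and was at least 20.9-fold higher. Neither Dlk1 nor Mest was detected on any eCSC array, and Igf2 was detected on 1 of 3. Peg3 rose by 3.45 and Ndn by 3.02, and Igf2bp3, a fetal mRNA binding protein, was at least 8.64-fold higher.

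Cell cycle genes were higher as well. Of 40 genes tested, 33 (82.5%, against 22.8% of all genes) were called higher by limma and 0 lower, also at an unadjusted p under 0.05. The median was 1.60, or 1.57 with undetected genes at their bound, against 0.79 without background correction and 0.81 with the authors' series matrix values. Cdk1, the kinase that starts mitosis, read 7.76, 7.93 and 8.48 on the YFP-positive arrays and was undetected on every adult array (at least 9.16-fold). Prc1, which organises the spindle midzone, read 8.67, 8.82 and 9.36 against 4.81, 5.22 and 5.38 in adult cells, where 2 of 3 arrays detected it (3.82 ± 0.21). Birc5 rose by 3.60 (detected on 2 of 3 adult arrays), the replication helicase subunit Mcm5 by 3.38 and Cdc20 by 3.31 (1 of 3), while Anln, which builds the cleavage furrow, was at least 6.66-fold higher. Of the 40 genes, 18 were undetected on every adult array, and of the 12 detected on all 6 arrays 11 were called higher. Which cells of the sort carried these transcripts was not tested, since fibroblast, endothelial and leukocyte markers were higher on the same arrays.

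Immediate early genes showed some of the largest rises. Of 25 immediate early and heat shock genes tested, 20 (80.0%, against 22.8% of all genes) were called higher and 2 lower, with a median of 2.02. The counts cover both classes, and none of the rises named below is a heat shock gene. Bag3, of the heat shock part, was called lower by 0.67 without overlap of its groups, and it is named after its values were seen. Fos read 11.61, 11.52 and 11.80 on the YFP-positive arrays and 6.81, 5.51 and 4.36 on the adult arrays, which also differed widely among themselves. Fosb read 10.80, 9.92 and 10.80 and was at least 50.1-fold higher. Atf3 rose by 4.86 (detected on 2 of 3 adult arrays), Junb by 3.66, Klf4 by 3.33, Egr2 by 3.07 (1 of 3) and Klf6 by 2.68, and Egr3 was at least 10.4-fold higher. Genes of this class are known to answer quickly to many stimuli, and the labels do not say how the adult cells were collected.

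Genes of hypertrophic and wall stress moved both ways. Of 26 tested, 10 (38.5%, against 22.8% of all genes) were called higher and 8 (30.8%, against 27.7%) lower, with a median of 0.13. The share called lower lay near that of all genes, and 13 of the 26 also belong to another list. Among the named members, Lgals3, a galectin of macrophages and injured tissue, rose by 4.50, the protease inhibitor Timp1 by 3.69 (detected on 2 of 3 adult arrays), and the collagen cross-linking enzyme Lox at least 10.7-fold. Hmox1, heme oxygenase, was at least 9.62-fold higher, and with 6.95 YFP-positive array 2 was below arrays 1 and 3 (8.88 and 8.55). Ankrd1, a stretch-responsive cardiac gene, read 12.28, 12.44 and 12.56 against 12.68, 12.93 and 13.11 in adult cells (−0.48 ± 0.18, adjusted p = 0.0341). Its call was lost without YFP-positive array 2 (adjusted p = 0.052), without YFP-positive array 1 (adjusted p = 0.118), and without adult array 2 or 3 (adjusted p 0.0834 and 0.126).

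The interferon response was higher in YFP-positive cells in 13 of 19 genes tested (68.4%, against 22.8% of all genes) and lower in 0 by limma. At an unadjusted p under 0.05 limma gave 14 and 0, and the median was 0.94. Isg15, a ubiquitin-like antiviral protein, read 8.18, 7.82 and 7.97 on the YFP-positive arrays and 5.74, 6.15 and 6.21 on the adult arrays (1.96 ± 0.18). Irf1, an interferon-induced transcription factor, rose by 2.89, Ifitm3 by 1.90, Oasl2 by 1.64, Gbp2 by 1.41 and Gbp3 by 1.12. YFP-positive array 2 was not the lowest in this list: its median over the 19 genes was 1.11, against 1.01 on array 1 and 0.72 on array 3.

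In adrenergic signalling, the shares of calls lay near those of all genes. Of 16 genes tested, 5 (31.2%, against 22.8% of all genes) were called higher and 5 (31.2%, against 27.7%) lower, with a median of −0.06. Adra1b, an alpha1 receptor, read 4.89, 5.64 and 4.82 on the YFP-positive arrays and 6.65, 6.77 and 6.53 on the adult arrays (−1.54 ± 0.21). Akap6, which anchors protein kinase A at the nuclear envelope of muscle cells, fell by 1.48. Ppp1r1a, a phosphatase inhibitor, rose by 1.66, the phosphodiesterase Pde4b by 1.49, and Arrb2 by 1.05 with detection on 1 of 3 adult arrays.

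Markers of cells other than ventricular cardiomyocytes were higher in YFP-positive samples across most of the types looked at. Over 11 lists, with atrial and conduction genes and skeletal muscle among them, 201 genes had a probe and 148 passed the detection filter. Of these 148, 107 (72.3%, against 22.8% of all genes) were called higher and 12 (8.11%) lower. The median was 1.56, or 1.44 with undetected genes at their bound. Of the 148 genes, 99 were detected on all 6 arrays and 27 were undetected on every adult array. Those 27 did not pass the filter through the adult group, so the count of 107 is not independent of the filter. Without YFP-positive array 2 the counts were 107 higher and 13 lower, with a median of 1.64. The sizes rest on the background correction: without it the medians were 1.54 for fibroblasts (2.45 with it), 0.44 for leukocytes (1.10), 1.60 for mast cells (3.17) and 1.13 for the epicardium (2.64).

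Fibroblast markers had the largest share of calls among the lists of other cell types with over 10 genes tested. Of 32 genes tested, 29 (90.6%, against 22.8% of all genes) were called higher by limma and 0 lower, also at an unadjusted p under 0.05. The median was 2.45. The signal summed over the list ran between 29860 and 39300 on the YFP-positive arrays and between 6238 and 8193 on the adult arrays, and 6 markers were undetected on every adult array (Col3a1, Col5a2, Cthrc1, Ddr2, Gsn and Lox). Col1a1, the main fibrillar collagen, read 10.29, 9.04 and 9.91 in YFP-positive cells and 4.58, 5.11 and 4.78 in adult cells, where 1 of 3 arrays detected it (4.92 ± 0.27, adjusted p = 9.2e-09). Vim, vimentin, read 12.41, 12.38 and 12.70 against 7.59, 8.11 and 8.44 (4.45 ± 0.25). Col5a1 rose by 4.32, the secreted protein Fstl1 by 4.06, Mfap5 by 3.11 and Col6a1 by 2.89. Dcn, decorin, was already high in adult samples and rose by 1.61, at 12.78, 12.35 and 12.57 against 10.54, 11.28 and 11.06.

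Endothelial markers rose by less and were mostly present in the adult samples too. Of 30 genes tested, 24 (80.0%, against 22.8% of all genes) were called higher and 1 lower, with a median of 1.54. Of the 30, 28 were detected on all 3 adult arrays. Summed signal was 31890 to 32560 on the YFP-positive arrays and 11380 to 15840 on the adult arrays. Pecam1, the junction protein CD31, read 10.34, 9.95 and 10.19 in YFP-positive cells and 7.91, 8.68 and 8.24 in adult cells (1.88 ± 0.20). Plvap, of fenestrated and activated endothelium, rose by 3.63, Cldn5 by 2.55, Vwf by 2.53, Emcn by 1.82 and Rasip1 by 1.81, and Lyve1, of lymphatic vessels, was undetected in adult samples and at least 3.30-fold higher. The member called lower was Kdr, a receptor for vascular growth factor, by 0.79, and it is named after its values were seen.

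Leukocyte markers rose unevenly and scattered between the YFP-positive arrays. Of 26 genes tested, 18 (69.2%, against 22.8% of all genes) were called higher by limma and 0 lower (19 and 0 at an unadjusted p under 0.05). The median was 1.10. A further 10 markers with a probe were not detected on all arrays of any group. With no filter 17 of 36 were called higher, with a median of 0.61. Summed signal ran between 7020 and 16540 on the YFP-positive arrays and between 2497 and 3663 on the adult arrays. S100a8, a calcium-binding protein of neutrophils, read 11.38, 9.80 and 10.91 in YFP-positive cells and 5.24, 5.23 and 5.51 in adult cells (5.37 ± 0.30), and its partner S100a9 was at least 13.8-fold higher. Laptm5, a lysosomal protein of blood cells, read 11.91, 9.59 and 10.76 against 7.45, 7.60 and 7.82 (3.13 ± 0.39). For both genes YFP-positive array 2 was the lowest of its group and above every adult array. Lyz2, lysozyme of macrophages and neutrophils, read 9.45, 9.30 and 9.43 against 7.80, 8.45 and 8.28 (1.22 ± 0.18), Fcer1g rose by 1.93 and Cd44 by 2.29.

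Of 11 mast cell markers with a probe, 8 passed the detection filter and these 8 were called higher. Of the 8, 2 were detected on all 3 adult arrays and 5 on none, so most passed through a group where they are high and their count supports nothing by itself. With no filter 8 of 11 were called higher, with a median of 2.18. Cpa3, the mast cell carboxypeptidase, read 8.52, 8.45 and 9.15 on the YFP-positive arrays and was undetected on every adult array (at least 14.4-fold higher). Kit, the c-kit receptor, which the lentiviral construct of this model refers to and which mast cells carry, read 8.68, 7.40 and 8.66 and was undetected on every adult and every eCSC array (at least 10.4-fold higher). Cma1, a chymase, rose by 3.85 with detection on 1 of 3 adult arrays, and Hdc, which makes histamine, by 3.64, while the tryptases Tpsb2 and Tpsab1 were at least 4.62-fold and 2.21-fold higher. Summed signal was 2084 to 3163 in YFP-positive cells and 297.1 to 316.4 in adult cells. The high-affinity IgE receptor genes Fcer1a and Ms4a2 had probes but were not detected on all arrays of any group.

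Of 12 epicardial and mesothelial markers with a probe, 7 passed the detection filter and these 7 were called higher. None of the 7 was detected on all 3 adult arrays, so they did not pass through the adult group and their count and median support nothing by themselves. With no filter the median over the 12 was 1.64. Upk3b, a uroplakin of mesothelium, read 10.42, 8.41 and 9.37 on the YFP-positive arrays and 4.64, 5.27 and 4.50 on the adult arrays, where 1 of 3 detected it (4.59 ± 0.38). Krt8, a keratin of simple epithelia, read 8.57, 6.64 and 8.41 and was at least 8.07-fold higher. In both, YFP-positive array 2 was the lowest of its group. Upk1b was at least 5.36-fold, Krt18 at least 4.21-fold, Msln at least 3.71-fold and Krt19 at least 2.92-fold higher.

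Erythroid genes had the highest median of the lists, 4.20. Of 7 with a probe, 6 passed the detection filter. These 6 were called higher (against 22.8% of all genes), 3 of them detected on all 3 adult arrays. Hba-a1, an alpha globin, read 14.58, 14.88 and 14.50 on the YFP-positive arrays and 10.68, 9.61 and 10.30 on the adult arrays (4.46 ± 0.24), and the adult globins Hbb-bs and Hbb-bt rose by 4.31 and 4.08. Globin copies are nearly identical, so the split between them is uncertain. Alas2, the erythroid heme enzyme, read 11.74, 9.30 and 10.01 and was detected on 1 of 3 adult arrays. Slc4a1, the red cell anion exchanger, read 10.02, 7.48 and 7.66 and was at least 11.5-fold higher. For these 2 genes array 1 was the highest of the YFP-positive group, whereas for Hba-a1 it was array 2.

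**Figure D4:**
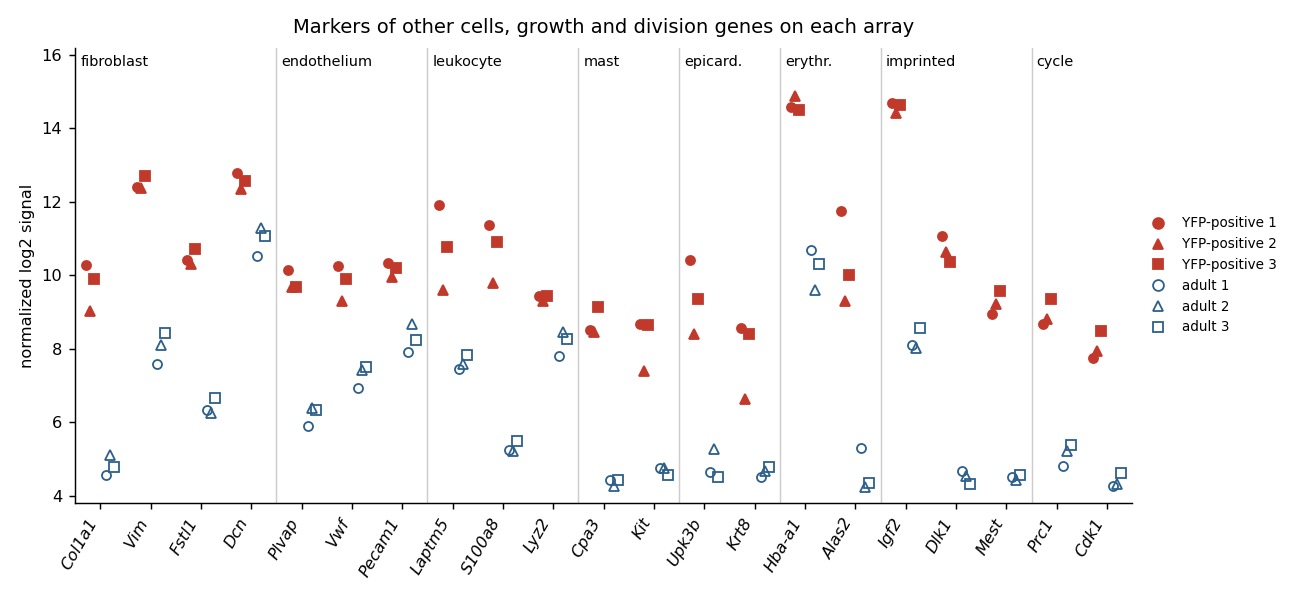
Normalized log2 signal (vertical axis) of 21 markers of other cell types, imprinted genes and cell cycle genes on each array; filled red symbols are YFP-positive arrays and open blue symbols adult arrays, placed right of them. YFP-positive arrays lie above adult arrays for each of the 21 genes. Array 2 (triangle) is lowest of its group for Laptm5, S100a8, Upk3b, Krt8 and Kit, and also for Col1a1, Vim, Dcn, Pecam1, Lyz2, Cpa3, Alas2 and Igf2. It is not the lowest for Hba-a1, Dlk1, Mest, Prc1 and Cdk1.

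Smooth muscle and pericyte markers did not move as a group. Of 15 genes tested, 5 (33.3%, against 22.8% of all genes) were called higher and 4 (26.7%, against 27.7%) lower, with a median of 0.14. Aoc3, an amine oxidase of vessel wall and fat, rose by 2.08, Mylk, the smooth muscle light chain kinase, by 1.02 and Mustn1 by 1.03. Abcc9, counted among the ion channels as well, was called lower by 0.97, the lowest difference of the list, and its groups did not overlap. Vtn, vitronectin, of pericytes, read 6.23, 7.56 and 6.48 on the YFP-positive arrays and 7.22, 7.64 and 7.93 on the adult arrays. These overlapped, and the call (−0.83 ± 0.29, adjusted p = 0.0254) was lost without YFP-positive array 1 or 3 or adult array 2 or 3 (adjusted p 0.0632 to 0.128).

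Adipocyte, skeletal muscle and Schwann cell lists were hardly detected. Only 2 adipocyte genes could be tested, of which Cidea fell by 1.25 and Pparg was not called (−0.05 ± 0.28), and Adipoq, Plin1 and Lep were among those not detected on all arrays of any group. Of 4 skeletal muscle genes, Mylpf, a fast light chain, fell by 1.15, and Ckm, which the heart also uses, was called lower, while Tnni2 and Pvalb were not called. Of 4 Schwann and nerve genes, Mbp, a myelin protein, was at least 2.62-fold higher, Dbh, which makes noradrenaline, fell by 1.36, and Prnp was called lower by 0.53. The call of Prnp was lost when any of the 3 adult arrays, YFP-positive array 1 or YFP-positive array 3 was left out (adjusted p 0.0529 to 0.124).

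Chamber genes differed too, although the labels give the left ventricle for the YFP-positive cells. Of 14 atrial and conduction genes tested, 9 (64.3%, against 22.8% of all genes) were called higher and 2 lower, with a median of 0.75. Of the 14, 4 were undetected on every adult array, so they did not pass the filter through the adult group. Of the 7 detected on all 6 arrays, 4 were called higher and 2 lower. Sln, sarcolipin, which regulates the calcium pump in atria, read 11.43, 10.89 and 11.82 on the YFP-positive arrays and 6.10, 6.24 and 4.51 on the adult arrays (5.76 ± 0.36). Dkk3 was undetected on every adult array and at least 20.2-fold higher. Kcnj5, a subunit of the atrial acetylcholine-gated potassium channel, fell by 1.40, at 5.25, 5.11 and 5.29 against 6.52, 6.59 and 6.75. Myl4, Myl7 and Nppa stand in this list and in the fetal list, since atrial and fetal ventricular muscle share them. On the adult arrays, replicate 3 was the lowest for Myl7, Myl4 and Sln. Atrial tissue and an immature state cannot be told apart by these shared genes.

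Stem and progenitor genes, counted with Kit among them, gave mixed values. Of 11 tested, 7 (63.6%, against 22.8% of all genes) were called higher and 2 lower. A further 7, Nanog, Pou5f1 and Sox2 among them, had a probe but were not detected on all arrays of any group. Of the 11, 4 were undetected on every adult array, so they did not pass the filter through the adult group. With no filter 7 of 18 were called higher, with a median of 0.13. Pdgfra rose by 1.43, Cd34 by 1.45 and Nes by 1.18, all of which are also made by stromal or vessel cells. Kitl, the ligand of c-kit, was at least 1.90-fold higher. Kdr, which also stands in the endothelial list, was called lower, and the lowest difference of the 11 genes was −1.01.

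YFP-positive array 2 was then set beside arrays 1 and 3 over the genes called without it. Of 2353 genes called higher from arrays 1 and 3 alone, 97.1% were above the adult mean on array 2 as well, and of 2867 called lower, 97.8% were below it. The size was smaller: the median was 0.86 on array 2 and 1.15 on the mean of arrays 1 and 3 for the rises (74.8%), and −0.58 and −0.86 for the falls (67.1%). Array 2 was nearer to the adult mean than arrays 1 and 3 in 81.6% of the rises and 85.5% of the falls. The same computation for array 1, held out against genes called from arrays 2 and 3, gave 40.4% and 31.7%, and for array 3 it gave 33.9% and 39.2%.

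**Figure D5:**
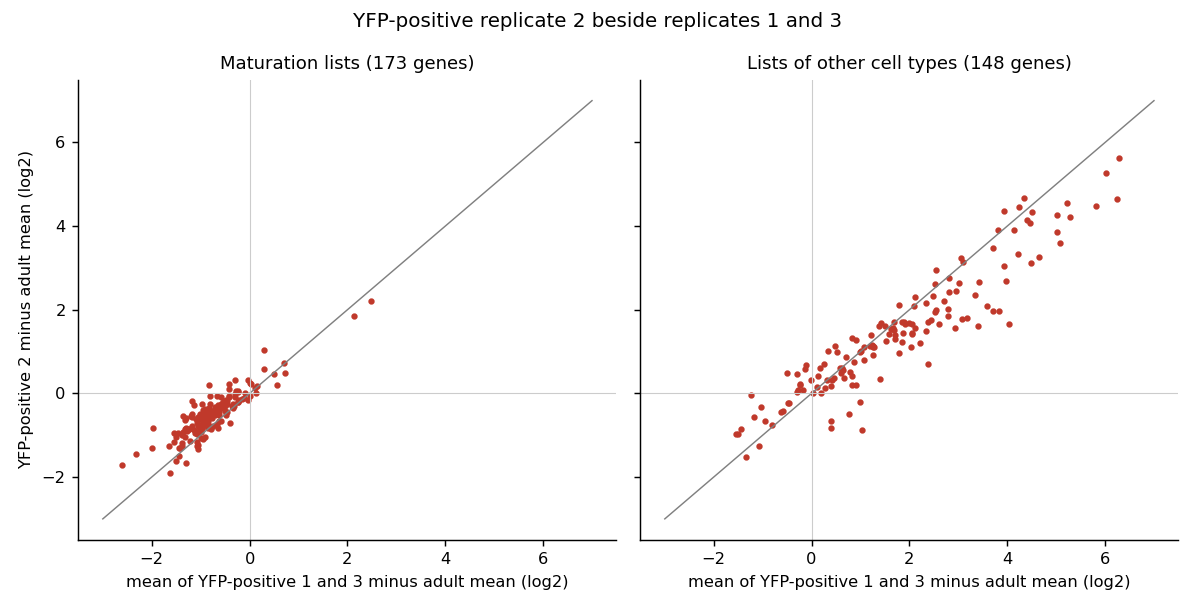
Difference of YFP-positive array 2 from the adult mean (vertical axis, log2) against that of the mean of YFP-positive arrays 1 and 3 (horizontal axis, log2), 1 point per gene of the maturation lists (left, 173 genes) and of the lists of other cell types (right, 148 genes), with the line of equal values. Most points keep their sign and lie between the line and 0 on the vertical axis.

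The position of array 2 was not the same in every list. In fatty acid oxidation it was nearer to the adult mean in 27 of 30 genes, in the respiratory chain in 32 of 36, in calcium handling and ion channels in 25 of 30, and in the imprinted network in 14 of 14. Its list median was −0.78 against −1.03 on the mean of the other 2 arrays for fatty acid oxidation, −0.37 against −0.84 for the sarcomere, and 1.69 against 2.77 for the imprinted network. Among the markers of other cells it was nearer in 7 of 7 epicardial genes (1.77 against 3.08), 23 of 26 leukocyte genes (0.90 against 1.26) and 25 of 32 fibroblast genes (2.13 against 2.55). In erythroid genes it was nearer in 2 of 6 (4.42 against 4.29), and in the interferon response in 8 of 19 (1.11 against 0.83). Array 2 also detected the fewest probes of the YFP-positive arrays, and the part of sorting or of RNA quality in its position was not tested.

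The counts of maturation genes called lower depended on the scaling between arrays. With no normalization they were 7 of 26 for the sarcomere, 15 of 30 for fatty acid oxidation and 12 of 36 for the respiratory chain, and with median scaling on the probes detected on all 9 arrays they were 21, 26 and 32. Regulators called lower numbered 13 with quantile normalization, 16 with median scaling on those detected probes, 4 with median scaling over all probes and 3 with none. The median difference of fatty acid oxidation was −0.95 with quantile normalization, −1.22 and −0.90 with the 2 median scalings and −0.82 with none. That of the sarcomere was −0.68, −0.94, −0.62 and −0.55 in the same order. Median scaling over all probes ended the lower calls of the contractile genes Lmod2 and Mylpf, of Pln, Fabp3, Cox7a2, Ankrd1, Vtn and Prnp, and of the factors Gata4, Nkx2-5, Tbx5, Irx4 and Smyd1 (adjusted p 0.0537 to 0.616), and it ended no call of a named gene that rose.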

How the data were processed

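Per the labels' protocols, Trizol RNA was amplified to biotin-labelled cRNA for bead arrays made by Illumina. The authors' deposited table of probes holds non-normalized intensity values for 45281 probes, with a detection column given as a fraction, of which 1 minus the value is the detection p. The authors' deposited series matrix holds log2 values of the same arrays, and was used as an alternative. Among tools, lumi (2.10.0) and R (2.15.3) appear in the submitters' processing notes, without a role. Here neqc in limma 3.58.1 (R 4.3.3) corrected the background with an offset of 16, normalized by quantiles and took log2, with the background estimated from the detection p-values. No source used here gives slides or positions.

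In GEO's platform annotation, 34885 probes had 1 symbol, 18 several and 10378 none, and 34807 symbols were updated by Entrez ID to RefSeq (GRCm38.p6). A probe was kept if every array of 1 or more of the 3 groups detected it (p under 0.05), with the brightest probe for each gene, which left 10024 of 19053 genes. All 9 arrays were fitted with lmFit and eBayes, and p-values were adjusted over all 10024 genes. Of 630 genes in 26 lists, 573 had a probe and 479 passed the filter, 368 of them detected on all 6 arrays. The members and lists were chosen with earlier results of these data known. Named genes are the 12 largest called rises and falls whose groups do not overlap and that every array of the higher group detected, up to 6 genes of each list by adjusted p, and 34 set genes. Alternatives changed the background correction, normalization, filter, probe rule, samples, array weights and replicate block, and left out each array. Tables were read with data.table (version 1.17.8) and jsonlite 2.0.0, and figures drawn with Python 3.11.15, pandas 2.3.3 and matplotlib 3.10.9. The fit was tested on simulated data. All columns of the tables used matched a sample (0 did not).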

Additional observations from a re-analysis of the deposited data

How the results depend on the processing

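No named gene changed direction where it was called in the main fit or under the alternative. Changes of sign in genes called in neither were not counted. Of 181 named genes, 151 kept their side of the threshold under every alternative that tested them. Detection on all 6 arrays tested 128 of the 181, and the other alternatives tested all of them. Against 5063 genes called, 3083 were called with median scaling over all probes and 2683 with no normalization between arrays. Genes called lower numbered 2779, against 829 with median scaling over all probes, 2575 with median scaling on the probes detected on all 9 arrays and 479 with none, and genes called higher 2284, against 1499 where detection was required on all 6 arrays, which tests fewer genes. With no normalization the members called lower numbered 7 for the sarcomere, 10 for calcium handling and ion channels, 15 for fatty acid oxidation, 7 for the citric acid cycle, creatine and oxygen supply, and 12 for the respiratory chain. With detection on all 6 arrays the members called higher numbered 6 of 8 tested for the imprinted network, 11 of 12 for the cell cycle, 19 of 22 for fibroblasts and 11 of 17 for leukocytes. Leaving out 1 array gave 4187 to 5251 genes called, 1970 to 2353 higher and 2175 to 2904 lower. The members called lower then ran 13 to 19 for the sarcomere, 17 to 20 for calcium handling, 22 to 26 for fatty acid oxidation, 16 to 19 for the citric acid cycle list and 28 to 32 for the respiratory chain. The members called higher ran 8 to 10 for fetal isoforms, 12 to 12 for the imprinted network, 31 to 33 for the cell cycle, 28 to 29 for fibroblasts, 22 to 25 for endothelium and 16 to 20 for leukocytes. Changes of at least 2-fold among the calls numbered 1957, against 833 without background correction, 1191 with an offset of 50 and 730 with the authors' series matrix values. The replicate block gave 5040 calls and changed no call of a named gene. Same-numbered YFP-positive and adult arrays correlated at 0.053, −0.058 and −0.048 in their deviations from the group means. Differently numbered ones correlated at −0.071 to 0.096, so no pairing by number was visible. Whether same-numbered samples share an origin was not tested. Other causes of these changes were not tested. Dim genes are limited by the background: the leukocyte median was 1.10, against 0.44 without background correction.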

Other observations

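Genes of cytosolic ribosomal proteins, the housekeeping part of protein synthesis, were higher in YFP-positive cells. Of 12 tested, 11 (91.7%, against 22.8% of all genes) were called higher by limma and 0 lower, also at an unadjusted p under 0.05. The median was 0.82, against −0.08 over all genes tested. Their median was 0.91, 0.74 and 0.87 above the adult mean on YFP-positive arrays 1, 2 and 3. Ribosomal protein genes have many near-identical processed copies, so the share of each gene in its signal is uncertain.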
